A study of Mus musculus with 8 samples.

Results

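Apoe encodes apolipoprotein E, and it is 1 of the 27318 mouse genes counted in single blood stem and progenitor cells from bone marrow. The gene was matched by its symbol to the Ensembl identifier ENSMUSG00000002985, and it was chosen by measured values: its RNA had been seen, in these same cells, to vary with the surface protein CD150, with a Dach1-GFP reporter and with CD135, and to occur together with Pf4, Itga2b, Gata1 and the C1q genes. Its levels along those proteins and beside those RNAs are therefore given as a description, without a test. Tests are given for the other sorted channels, for pairs of proteins, for the difference between plate sets and for the remaining genes. Those for pairs of proteins use the axes of the choice, and their p-values are read as description.

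Cells labelled LSK (lineage-negative, Sca1-positive, cKit-positive marrow cells, the fraction that holds the blood stem cells) were sorted singly into the wells of 8 plates and sequenced by CEL-seq2, which reads the 3' ends of polyadenylated RNA. The labels describe the cells as coming from Dach1 reporter mice, in which a biotin tag was joined to the end of the Dach1 protein and GFP is made from the same transcript, on an allele made in C57BL/6 embryonic stem cells from 1 targeted clone. Mice of several lines aged 8 to 16 weeks are named for the series. The labels do not say which animals, or how many, went into each plate. Marrow was enriched for cKit with magnetic beads before staining. All plates belong to 1 group, so there is no untreated or wild-type control, and the comparisons are among cells of a plate ranked by protein brightness. Plates LC187, LC188, LC189 and LC190 form the LC set, and LCE409, LCE407, LCE408 and LCE410 form the LCE set. Counts and fluorescence could be joined for 2987 wells, of which 2712 passed the filters, 335 to 340 on each plate. The LC plates were deeper, with median totals of 11586 to 13398 counts per well against 5627 to 7525 in the LCE set. Kit RNA was found in 67.2% to 85.0% of the wells of a plate and Cd34 RNA in 80.5% to 92.9%, while Ly6a, which encodes Sca1, was found in 23.8% to 43.8%.

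Apolipoprotein E carries cholesterol and other lipids on lipoprotein particles and is taken up through lipoprotein receptors. Liver, macrophages and brain glia are its best known sources, and in macrophages its transcription is driven by liver X receptors and accompanies cholesterol efflux through the ABCA1 and ABCG1 transporters. In mice that lack the protein, blood stem and progenitor cells are known to expand and to make more monocytes and neutrophils. CD150 (encoded by Slamf1) is high on long-term stem cells and on progenitors biased to platelets and red cells, CD135 (encoded by Flt3) is high on progenitors biased to lymphoid and myeloid fates, and Dach1 encodes a transcriptional cofactor whose fall accompanies lymphoid priming.

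In the GRCm38 build (GENCODE annotation), Apoe lies on the minus strand at chr7:19696109-19699188. It is protein coding, and 0 annotated genes overlapped it. Tomm40, a subunit of the mitochondrial import pore, ends 2124 bases upstream on the same strand, and the apolipoprotein genes Apoc1, Apoc4 and Apoc2 follow at 3448, 14629 and 18167 bases downstream. The 250 bases before the first annotated start of Apoe are shown beside those of Pf4 and Itga2b, because wells with Apoe RNA held these RNAs more often. The sequences are RefSeq's for GRCm38.p6, read on each gene's own strand, and the capitals mark GGAAG or its reverse complement CTTCC, the core bound by ETS family transcription factors. The windows are chr7:19699189-19699438 (minus strand) for Apoe, chr5:90772185-90772434 (plus strand) for Pf4 and chr11:102469884-102470133 (minus strand) for Itga2b.
Apoe: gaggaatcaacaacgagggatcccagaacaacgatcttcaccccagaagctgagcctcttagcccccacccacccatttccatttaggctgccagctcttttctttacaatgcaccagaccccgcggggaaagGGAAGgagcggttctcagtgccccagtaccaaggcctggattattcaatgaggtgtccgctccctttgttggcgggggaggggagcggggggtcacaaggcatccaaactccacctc
Pf4: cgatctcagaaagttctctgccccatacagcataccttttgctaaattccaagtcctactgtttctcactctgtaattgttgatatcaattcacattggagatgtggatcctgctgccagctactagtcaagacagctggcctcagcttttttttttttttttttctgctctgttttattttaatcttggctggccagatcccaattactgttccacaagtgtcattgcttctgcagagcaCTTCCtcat
Itga2b: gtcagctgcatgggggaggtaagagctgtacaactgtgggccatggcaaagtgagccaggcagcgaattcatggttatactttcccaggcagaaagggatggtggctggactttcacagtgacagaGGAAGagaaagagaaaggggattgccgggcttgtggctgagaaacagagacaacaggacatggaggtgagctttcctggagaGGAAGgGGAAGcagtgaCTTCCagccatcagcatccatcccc
The Apoe window held 1 match, the Pf4 window 1 and the Itga2b window 4 (none overlapping another), and 64.1% of the 32851 windows of the same length in the table held at least 1. GATAA or its reverse complement TTATC, letters read by GATA factors, had 0 matches in each of the 3 windows and occurred in 22.6% of all windows. These matches describe letters only.

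Apoe RNA was sparse. It gave 1638 counts in 828 of the 2712 wells (30.5%), of which 511 wells held 1 count, 254 held 2 to 4 and 63 held 5 or more. The 63 wells with 5 or more counts carried 29.8% of all Apoe counts, and the highest well held 22. The share of wells with Apoe RNA was 36.2% on LC187, 42.1% on LC188, 32.4% on LC189 and 41.5% on LC190. It was 21.5% on LCE409, 17.2% on LCE407, 27.5% on LCE408 and 25.9% on LCE410. The 2 sets did not overlap in this share, and the set with the higher share was the deeper one. In CPM (counts scaled to a common library total) they overlapped, at 50.9 to 73.3 in the LC set and 35.1 to 65.0 in the LCE set. When every well was thinned to 3000 counts, which left out 40 shallower wells, the share ran from 9.15% to 17.4% over the 8 plates and the sets overlapped as well. Within plates, the deepest quintile of wells held Apoe RNA in 35.9% ± 8.92 (SD, n = 8 plates) and the shallowest in 29.3% ± 12.5. On LC187 and LC190 the share was lower in the deepest wells (39.7% against 44.1%, and 42.6% against 45.6%). In CPM the order was reversed, with 43.4 ± 11.3 in the deepest and 80.3 ± 27.5 in the shallowest quintile.

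Along CD150, Apoe RNA was flat over 4 quintiles of each plate and higher in the brightest quintile. From the dimmest to the brightest quintile the share of wells averaged 27.0% ± 5.46, 23.9% ± 8.60, 24.9% ± 10.8, 28.2% ± 11.6 and 48.6% ± 12.7 (SD, n = 8 plates). The brightest quintile ran from 30.9% (LCE407) over a median of 46.3% to 66.2% (LC188 and LC190), and the dimmest from 19.4% to 35.3%. The ranges therefore overlapped between plates, but on each of the 8 plates the brightest tercile exceeded the dimmest tercile. Thinned to 3000 counts the shares were 12.7%, 9.61%, 10.04%, 11.8% and 26.9%. Between the brightest and dimmest terciles the share differed by 15.2 percentage points ± 9.32, and the fitted level differed by 1.24 ± 0.15 (SE) on the log2 scale. In this contrast 2.11% of 10398 genes tested passed the adjusted p threshold of 0.05 in edgeR, a value given as background only since the contrast was used to choose the gene. LC190 had the largest ratio of the 8 plates at 2.73 (log2 CPM), with the next plate at 1.35 and the lowest at 0.72. Without LC190 the fitted difference was 0.97. The share of wells with any C1q RNA rose along the same axis from 9.61% to 16.2%, and without those wells Apoe was found in 37.6% of the brightest and 24.3% of the dimmest tercile.

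Dach1-GFP brightness ordered Apoe RNA more gradually. From the dimmest to the brightest quintile the shares were 21.6% ± 8.33, 25.2%, 27.5%, 30.9% ± 11.3 and 47.3% ± 12.3 (SD, n = 8 plates). The dimmest quintile ran from 5.97% (LCE407) over 20.6% to 30.9% (LC188), and the brightest from 32.4% (LCE407) over 46.7% to 67.6% (LC188). Here the 2 ends did not overlap over the 8 plates. The difference between terciles was 18.2 percentage points ± 5.33, positive on 8 of 8 plates, and 1.67 ± 0.12 (SE) on the log2 scale, in a contrast where 7.77% of 10314 genes passed. Any C1q RNA rose from 8.85% to 15.6% of wells, and without C1q wells Apoe was found in 38.5% of the brightest and 22.03% of the dimmest tercile.

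CD135 ran the other way. Apoe RNA was found in 47.8% ± 10.2 of the wells in the dimmest CD135 quintile, then in 31.8%, 26.5%, 22.3% and 24.1% ± 11.5 (SD, n = 8 plates). The dimmest quintile ran from 29.9% (LCE407) over 47.4% to 63.2% (LC190), and the brightest from 5.88% (LCE407) over 23.7% to 41.2% (LC187). The brightest tercile lay 18.5 percentage points below the dimmest (difference -18.5 ± 8.27), lower on 8 of 8 plates, and the fitted level was -1.48 ± 0.13 (SE) on the log2 scale, where 11.1% of 10377 genes passed. C1q RNA showed no such slope here, with 12.6% of wells in the dimmest and 12.1% in the brightest quintile.

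**Figure D1:**
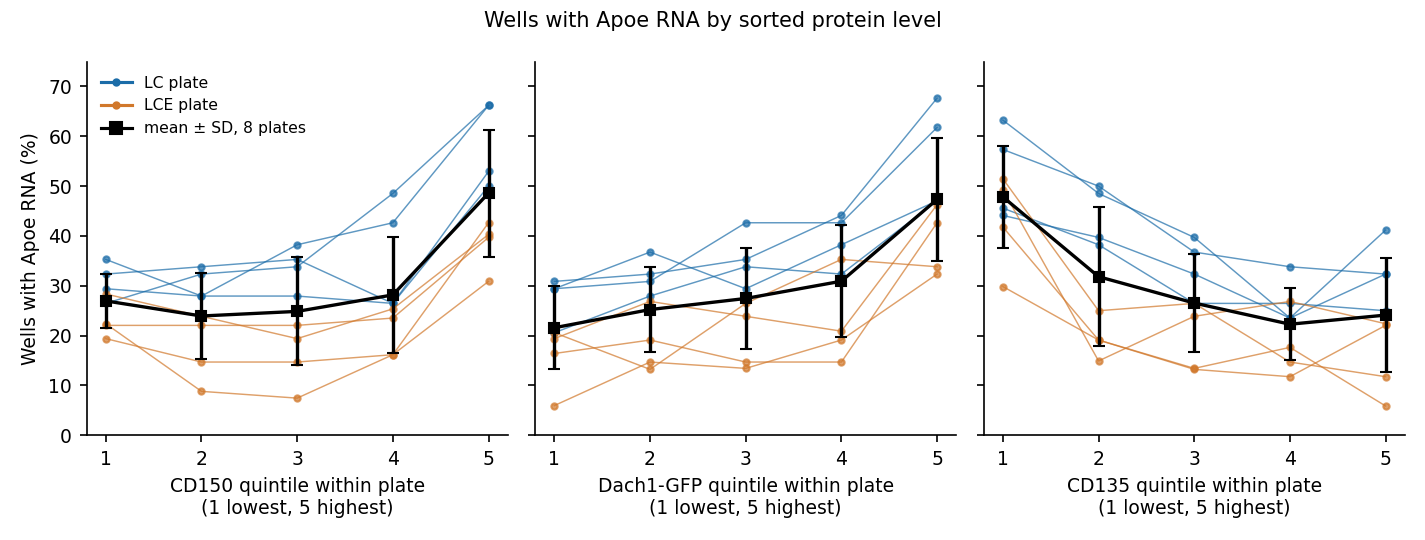
Share of wells with at least 1 Apoe count (vertical axis, percent) in within-plate quintiles of CD150, Dach1-GFP and CD135 (horizontal axes); thin lines are plates, squares and bars the mean ± SD of 8 plates. The mean climbs to 48.6% in the brightest CD150 quintile and 47.3% in the brightest Dach1-GFP quintile, and falls from 47.8% to 24.1% along CD135.

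These shares need a background, since free RNA can place a count in a well whose cell does not express the gene. B lineage wells, with at least 3 of 9 B cell genes such as Cd79a, Vpreb1 and Ebf1, are cells not known for Apoe. Apoe was found in 44 of 160 such wells (27.5%, 95% exact binomial interval 20.7% to 35.1%; intervals here cover counting error only), at a median depth of 6629.5 counts. With at least 5 of the 9 genes it was found in 13 of 72 (18.1%, 9.98% to 28.9%) at 30.2 CPM, with 2 counts at most in a well, and after thinning in 10.5%. Most of the stricter wells, 98.6%, lay below the plate median of GFP. Of the 160 wells, 78.75% were in the dimmest Dach1-GFP tercile, 60% in the dimmest CD135 tercile and 56.25% in the brightest CD150 tercile. They are in part members of the quintiles set against them, and so no independent background along these axes. The 4 lower CD150 quintiles lay within both intervals on average, at 34.8 to 45.2 CPM, and their shares are not read as above background. The same holds for the 3 lower Dach1-GFP and the 3 upper CD135 quintiles in CPM, at 30.7 to 42.8 and 32.8 to 41.8, against 51.1 in the B lineage wells with at least 3 genes. The stricter wells, at 30.2 CPM, lay below all of these quintiles, so the reading in CPM depends on the B lineage set used. After thinning these quintiles ran from 9.16% to 12.7%, on either side of the 10.5% of the stricter wells. The next quintile on each axis lay close to the B lineage wells with at least 3 genes. Dach1-GFP quintile 4 was at 61.3 CPM (15.05% thinned) and CD135 quintile 2 at 54.2 CPM (14.1% thinned), against 51.1 CPM and 13.9%. On the LC plates alone these 2 quintiles held Apoe in 39.3% and 44.1% of wells. CD150 quintiles 1 to 4 held it there in 30.9%, 30.5%, 33.8% and 36.0%. The first interval pools 65 B lineage wells of the LC set with 95 of the shallower LCE set. It is therefore no background at like depth for these LC values, which are not read as above it. The brightest CD150 quintile, the brightest Dach1-GFP quintile and the dimmest CD135 quintile lay above both intervals. At the equal depth of 3000 counts they stood at 26.9%, 24.3% and 27.3%.

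The 3 axes met in 1 class of cells. When each plate was split at its median of all 3 proteins, wells with high CD150, high Dach1-GFP and low CD135 held Apoe RNA in 301 of 620 cases, 48.1% ± 13.1 per plate (SD, n = 8), at 115 CPM. On single plates this class ran from 33.3% over a median of 43.8% to 69.2%. The next class, with low CD150, high Dach1-GFP and low CD135, stood at 30.1% ± 8.94 and 59.0 CPM. The remaining 6 classes lay between 21.8% and 26.4% on average, and neighbours among them differed by less than their SD. High CD150 with high Dach1-GFP but high CD135 was at 21.8% ± 13.2 in 157 wells, with 43.1 CPM and 9.40% after thinning. C1q RNA was found in 15.5% of wells of the leading class and in 16.9% of this CD135-high one, so the C1q share did not follow the Apoe share across these 2 classes.

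**Figure D2:**
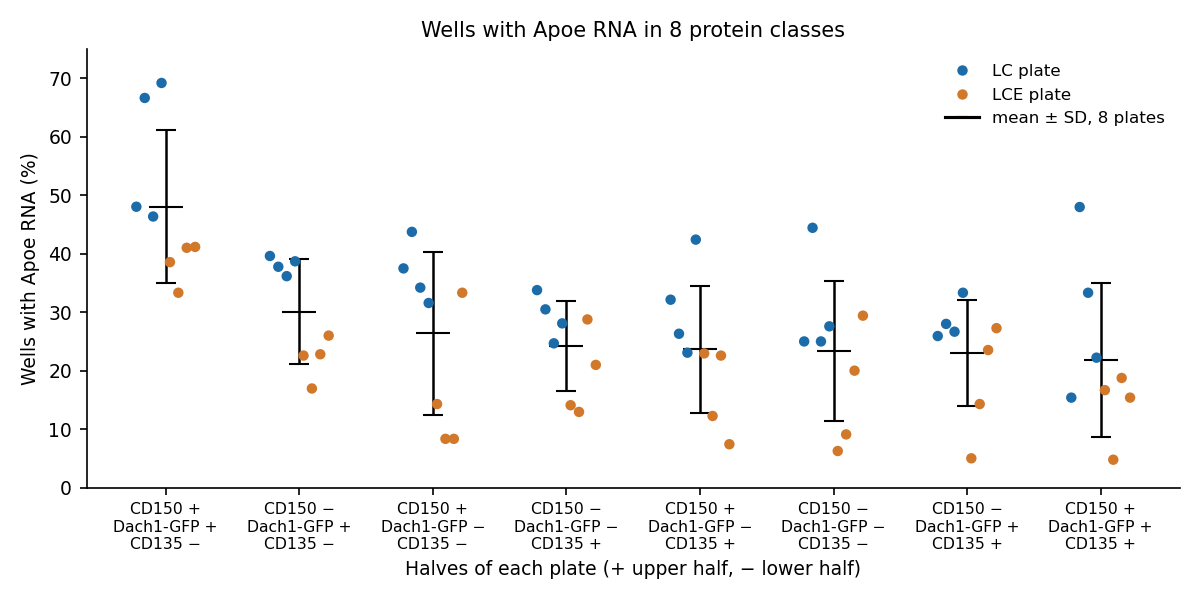
Share of wells with Apoe RNA (percent) in the 8 classes made by the plate medians of CD150, Dach1-GFP and CD135 (plus above, minus below); points are plates, bars the mean ± SD of 8 plates. The class high for CD150 and Dach1-GFP and low for CD135 stands at 48.1%, the others between 21.8% and 30.1%.

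Whether 1 protein changed the difference along another was tested on sums split at 2 plate medians. The Dach1-GFP difference in Apoe was larger at low CD135: the interaction was -1.44 ± 0.24 (SE, log2; edgeR quasi-likelihood, Benjamini-Hochberg adjusted p = 1.8e-05 over all genes). This pair called 7.06% of 10296 genes. Below the CD135 median Apoe was found in 41.3% of Dach1-GFP-high and 25.4% of Dach1-GFP-low wells, and above it in 22.5% and 23.8%. On the LCE plates alone the interaction was -1.18 with an adjusted p of 0.193. CD150 with Dach1-GFP gave 0.76 ± 0.21, which did not pass (edgeR adjusted p = 0.177 over all genes; 0.000713 over the 3 pairs; 0.0681% of genes called). CD150 with CD135 gave -0.78 ± 0.22 (edgeR adjusted p = 0.243 over all genes; 0.000729 over the 3 pairs; 0.0195% called). In shares, wells above the median of both CD150 and Dach1-GFP held Apoe in 42.9% ± 11.9 of 777 wells, against 25.1% with CD150 alone high, 27.8% with Dach1-GFP alone high and 24.05% with both low. Apoe was chosen for its relation to these proteins, so the interactions are not independent of that choice. Their p-values are given as description and not as independent support.

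The 2 plate sets were compared for each contrast. The CD150 difference was 1.42 ± 0.20 on the LC plates and 0.93 ± 0.18 on the LCE plates (SE, log2), and the difference between sets was -0.50 ± 0.30 (edgeR adjusted p = 0.65; 0.635% of genes called). For Dach1-GFP the sets gave 1.77 and 1.46, with a difference of -0.31 ± 0.25 (adjusted p = 0.84; 0.126% called). For CD135 they gave -1.46 and -1.51, with a difference of -0.06 ± 0.26 (adjusted p = 0.975; 0.655% called). No set difference passed.

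A further 9 channels were recorded and took no part in the choice of the gene, 4 on all 8 plates and 5 on the 4 LCE plates. Apoe was lower in wells bright for Sca1 and CD48 and higher in wells bright for CD16/32, PIR-A and CD11b. With plate as a block, bright and dim terciles are compared within plates. edgeR estimates the spread partly from all genes, so the SE and p-value do not measure Apoe's own spread over plates alone. That spread of the log2 CPM ratio was 0.66 along CD48, 0.61 along PIR-A and 0.21 along CD16/32 (SD, n = 4 plates). The labels do not tie plates to animals, so spread over plates may be of animals or of handling. CD48 separates multipotent progenitors from stem cells and is absent on the latter. In its brightest tercile the share was 18.6% on LCE409, 14.2% on LCE407, 22.3% on LCE408 and 22.8% on LCE410, and in its dimmest tercile 23.01%, 22.3%, 30.6% and 30.1%. Every plate was lower in the bright tercile, although the groups overlapped. The level differed by -0.92 ± 0.19 (SE, log2; edgeR adjusted p = 0.000334 over all genes), and 11.4% of 9083 genes passed in that contrast.

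CD16/32, the Fc gamma receptors that mark granulocyte and monocyte progenitors, gave the opposite sign. Its brightest tercile held Apoe RNA in 28.3% of wells on LCE409, 24.8% on LCE407, 29.5% on LCE408 and 32.5% on LCE410, and its dimmest tercile in 18.6%, 10.7%, 24.3% and 19.5%. The groups did not overlap. The level was 0.84 ± 0.18 higher (SE, log2; edgeR adjusted p = 0.00256), where 1.07% of 8809 genes passed. PIR-A, an activating immunoglobulin-like receptor of myeloid cells, gave 0.79 ± 0.19 (edgeR adjusted p = 0.00492; 1.32% of genes), higher in CPM on 4 of 4 plates, with shares of 28.3%, 22.1%, 30.4% and 29.8% against 14.2%, 10.7%, 25.2% and 25.7% in the same plate order. CD11b, an integrin chain of myeloid cells and macrophages, gave 0.52 ± 0.11 (edgeR adjusted p = 0.00309; 0.815% of 10183 genes), higher in CPM on 7 of 8 plates.

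C1q RNA rose with the same 3 myeloid channels. Any C1q RNA was found in 13.9% of wells in the bright and 5.80% in the dim tercile of CD16/32, in 14.4% and 6.24% for PIR-A, and in 19.7% and 7.88% for CD11b. The summed level of the macrophage list ran from 269 to 372 CPM in the bright CD16/32 terciles and from 191 to 234 in the dim ones. For PIR-A it ran from 246 to 424 against 190 to 226, and for CD11b from 244 to 436 against 170 to 236. Lyz2 and Ctsb, the most abundant genes of the list, averaged 88.8 and 67.2 CPM over plates. They were found in 46.3% and 41.1% of all wells, so the sum is not read as macrophage RNA alone. Of the macrophage genes, Marco was at 0 in all wells, and C1qa, C1qb and C1qc were all present. Without any C1q well, an alternative chosen after seeing the data, Apoe differed by 0.14 along CD11b (adjusted p = 0.832), 0.66 along CD16/32 (adjusted p = 0.125) and 0.59 along PIR-A (adjusted p = 0.165). None of the 3 passed then. Along CD48 the value without those wells was -1.13 (adjusted p = 0.000183). DESeq2 on the same sums passed none of the 5 channels, with -0.92 along CD48 (adjusted p = 0.0811).

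Sca1, the antigen that defines the sorted fraction, gave -0.44 ± 0.12 (SE, log2; edgeR adjusted p = 0.00688), lower in CPM on 7 of 8 plates, where 11.9% of 10157 genes passed. The bright tercile held Apoe RNA in 16.8% to 39.5% of wells with a median of 27.4%, and the dim tercile in 19.6% to 50.4% with a median of 33.5%. The ranges overlapped widely, and without LC188 the difference was -0.34 with an adjusted p of 0.0794. The other 4 channels gave no call in edgeR. The cKit difference was 0.23 (95% interval 0.01 to 0.46; adjusted p = 0.348), and the IL7R difference 0.01 (-0.22 to 0.24; adjusted p = 0.996). Forward scatter, which follows cell size, gave -0.24 (-0.58 to 0.11; adjusted p = 0.384), and side scatter -0.29 (-0.63 to 0.05; adjusted p = 0.368). Of genes tested, 3.76% passed for cKit, 0.494% for IL7R, 18.6% for forward scatter and 7.72% for side scatter.

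**Figure D3:**
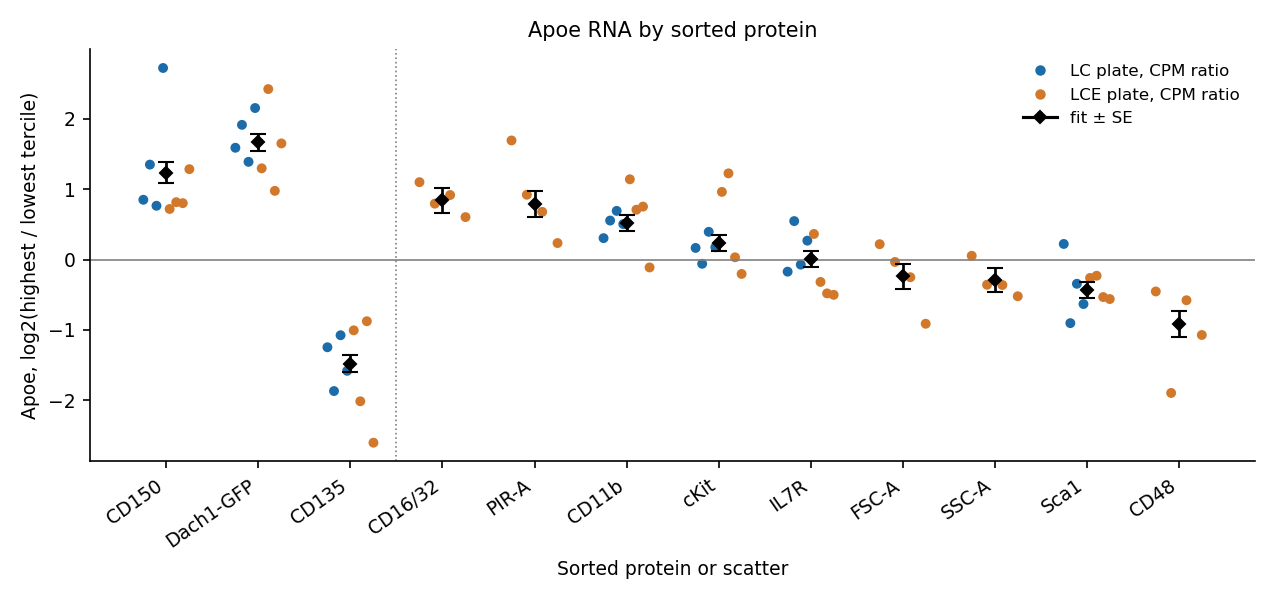
Apoe RNA in the brightest against the dimmest within-plate tercile of each sorted channel (vertical axis, log2 ratio); points are plates, diamonds and bars the edgeR fit ± SE, and the dotted line parts the 3 proteins used to choose the gene from the 9 tested. LC190 stands at 2.73 for CD150, and all 4 plates lie above 0 for CD16/32 and below 0 for CD48.

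On the LCE plates CD48 could be set beside CD150 and CD135, as in the usual scheme for stem cells. Wells below the plate median of CD135 and CD48 and above that of CD150 held Apoe RNA in 50.0% of cases on LCE409, 35.6% on LCE407, 40.0% on LCE408 and 46.9% on LCE410. With CD150 below its median the same gate held 18.5%, 14.5%, 14.8% and 23.4%. The 2 gates did not overlap, at 43.1% ± 6.55 and 17.8% ± 4.14 (SD, n = 4 plates). With CD48 above its median, the CD150-high and CD150-low wells did not differ beyond their spread, at 27.4% ± 7.29 and 28.7% ± 9.76. Wells high for CD135 held Apoe in 15.8% with high and 18.1% with low Dach1-GFP. These gates are cut at plate medians and are not the gates of a sort.

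The wells with most Apoe RNA sat at the same corner. Of the 63 wells with at least 5 counts, 77.8% were in the brightest CD150 tercile, 81.0% in the brightest Dach1-GFP tercile and 76.2% in the dimmest CD135 tercile. Their median depth was 13073 counts, against 8342.5 in wells with no Apoe count. Gata2, a transcription factor of stem, mast and megakaryocyte cells, was found in 81.0% of them and in 44.7% of wells with no Apoe count. Itga2b was found in 60.3% against 18.05%, and C1qa in 22.2% against 2.71%. Mpo, the myeloperoxidase of granulocyte precursors, was found in 95.2% against 76.6%, and Hlf, a stem cell transcription factor, in 66.7% against 78.2%. These shares pool the wells of all plates, so plate set and depth are not separated from the Apoe count. Plate by plate, wells with any Apoe count held Mpo in 97.3% to 100% on LC and 51.7% to 70.5% on LCE plates. Wells without Apoe stood at 99.5% to 100% and 47.7% to 65.5%. Of the 20 highest wells 19 were on LC plates, 17 held Pf4, Itga2b or Gata1 RNA, and 7 held any C1q RNA. The highest, on LC190, had 22 Apoe counts of 13493 with 2 counts of Itga2b, 2 of Gata1 and 0 of the C1q genes. A well on LC188 with 11 Apoe counts held 12 of Gata1 and 0 of Pf4 and Itga2b.

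Among the partners, Itga2b was the most common. It encodes CD41, an integrin of megakaryocytes and platelets that early stem and progenitor cells also make. Its RNA was found in 584 wells, in 27.3% ± 9.70 of wells with and 18.5% ± 6.06 of wells without Apoe (SD, n = 8 plates), higher on 8 of 8 plates, and the odds ratio pooled over plates was 1.70. Pf4, the platelet chemokine stored in alpha granules, was found in 221 wells, in 11.6% ± 7.14 against 6.84% ± 4.46, higher on 7 of 8 plates, with an odds ratio of 1.79. LC187 was the exception, with Pf4 in 0.81% against 0.92%, and only 1 well held both there. Gata1, the transcription factor of red cell and megakaryocyte differentiation, was found in 187 wells, in 9.19% ± 4.44 against 5.90% ± 4.89, higher on 7 of 8 plates, with an odds ratio of 1.56. Within quartiles of depth the odds ratios were 1.70 for Itga2b, 1.73 for Pf4 and 1.52 for Gata1. They are descriptions over cells of 8 plates and carry no test.

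The 3 megakaryocyte and erythroid partners met Apoe mainly in bright CD150 wells. Below the CD150 median the odds ratios were 1.14 for Pf4, 0.94 for Itga2b and 0.83 for Gata1, and above it 2.19, 2.28 and 2.11. The protein contrasts were also read without partner wells. In wells with none of Pf4, Itga2b and Gata1, Apoe was found in 32.9% of the brightest and 25.4% of the dimmest CD150 tercile (higher on 8 of 8 plates). In wells that also lacked C1q RNA the shares were 30.7% and 24.3%, higher on 6 of 8 plates. In wells with at least 1 of the 3 they were 51.7% and 25.1%. Along Dach1-GFP, wells with no partner and no C1q RNA held Apoe in 34.3% and 19.98% (8 of 8 plates). Along CD135 they held it in 20.2% of the bright and 33.9% of the dim tercile, lower on 8 of 8 plates. For reference, Slamf1, which encodes CD150, had an odds ratio of 2.04 over 60 wells, Gata2 1.48, Dach1 1.25 and Kit 1.18. Mpo was at 0.96, Dntt, the terminal transferase of lymphoid precursors, at 0.79 and Flt3 at 0.73.

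**Figure D4:**
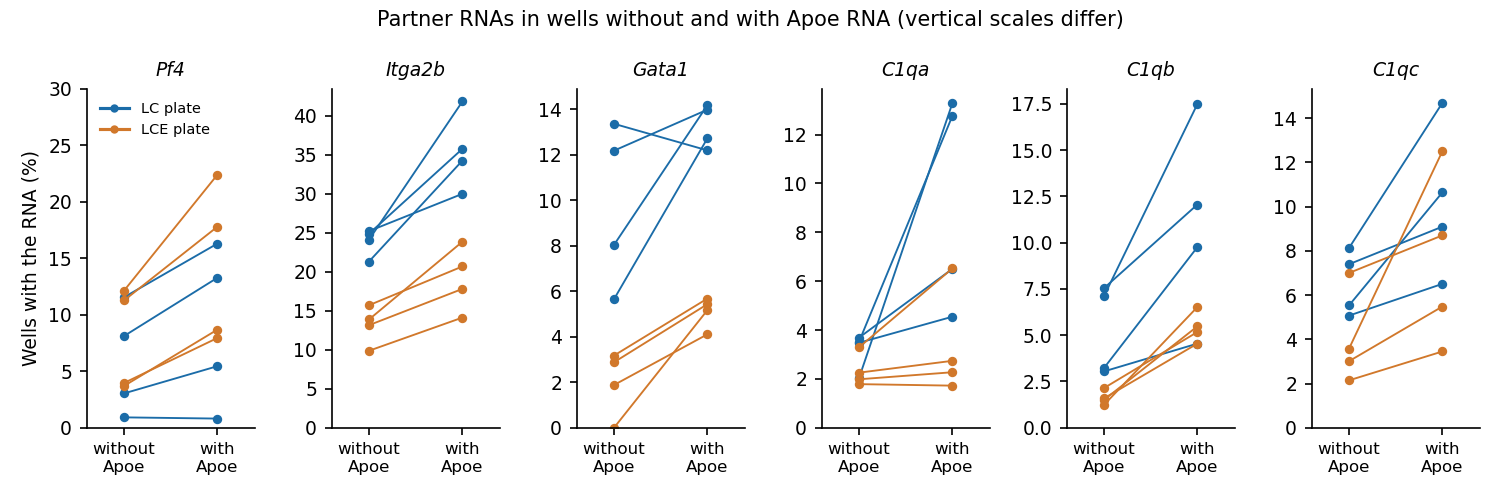
Share of wells with each partner RNA (vertical axes, percent, with different scales) among wells without and with Apoe RNA; each line is a plate. Itga2b, C1qb and C1qc rise on 8 of 8 plates, and Pf4, Gata1 and C1qa on 7 of 8.

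The C1q genes encode the chains of the first complement component and are made by macrophages, and in marrow they mark the macrophages of erythroid islands among others. C1qa RNA was found in 112 wells, in 6.30% of wells with and 2.75% without Apoe (odds ratio 2.55), C1qb in 136 wells, in 8.19% and 3.42% (2.51), and C1qc in 174 wells, in 8.88% and 5.23% (1.77). Apoe was found in 28.3% of the 2373 wells with none of the 3, in 40.2% of 276 wells with 1, in 69.8% of 43 wells with 2 and in 75% of 20 wells with all 3. The 63 wells with at least 2, called macrophage-like here, held Apoe at 179 CPM in 71.4% (95% exact binomial interval 58.7% to 82.1%) and carried 9.52% of all Apoe counts. They also held Vcam1 in 52.4%, Hmox1 in 52.4% and Mrc1 in 42.9% of cases, against 5.02%, 8.08% and 3.21% in other wells. Adgre1, which encodes the F4/80 antigen, was found in 11.1% against 0.45%, and Marco was at 0 in both. Progenitor RNA was also present: Kit was found in 85.7% of the macrophage-like wells (245 CPM, 234 in other wells), Cd34 in 95.2% (362 CPM in both), Ptprc in 77.8% and Flt3 in 61.9%. On single plates the macrophage-like wells held Apoe in 33.3% of 3 (LCE409) to 88.9% of 18 (LC188). The values of this class pool all plates, so plate set and depth are not separated from it. The name macrophage-like is set by the number of C1q genes alone. These wells had passed the same LSK sort, and what they held was not tested. No doublet caller was run. Of the macrophage-like wells, 73.0% were in the brightest CD150 tercile. Without them the shares by CD150 were 39.0% and 25.1%.

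Genes whose pattern was most like Apoe were ranked over 64 sums (8 plates by 8 protein classes, 11 to 91 wells each), on log2(CPM + 1) centred within plate, among 9895 genes with a mean of at least 10 CPM. The sums share plates and depth, and the correlations are descriptions. The 10 highest included Pcdh7 (r = 0.57), Trim47 (0.55), Smarcc2 (0.54), Phc1 (0.53), Arhgef40 (0.53), Cdk6 (0.52), Ripor1 (0.51), Igf1r (0.51) and Slc18a2 (0.51). Cdk6 encodes a cell cycle kinase, Phc1 a Polycomb protein and Slc18a2 a vesicular transporter of monoamines found in mast cells. The 5 lowest were Gm3699 (-0.46), Eif4g2 (-0.46), Hmga1b (-0.44), Mia2 (-0.44) and Gm10736 (-0.43). Of the partners, Itga2b was at 0.49 (rank 17), Pf4 at 0.42 (rank 81) and Gata1 at 0.16 (rank 2436).

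Wells with and without Apoe RNA were then compared for all other genes, on sums per plate. Among the genes higher in wells with Apoe were 5 of 6 tested genes of the mast and basophil list. These include Srgn and Gata2, found in 99.7% and 48.3% of all wells and so not particular to those cells. Among the lower ones were 4 of 17 tested lymphoid priming genes. Of 11646 genes tested, 31 passed (0.266%), 21 higher (0.18%) and 10 lower (0.0859%) at an edgeR adjusted p under 0.05. Of the 31, Pf4, Itga2b, C1qb and C1qc were partners by choice, with log2 differences of 1.94, 0.82, 1.43 and 1.11, and the other 27 were not. The calls rest on pairing within plates. The median over all genes tested was -0.004.

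Of the 12 mast and basophil genes listed, 6 could be tested and 5 rose, with a median of 0.72 over the 6. Hdc, the histidine decarboxylase that makes histamine, stood at 21.4 CPM in wells with and 9.97 in wells without Apoe, a difference of 1.09 ± 0.18 (SE, log2; adjusted p = 0.000276). Slc18a2 rose by 0.90 ± 0.14, Cpa3, a mast cell carboxypeptidase, by 0.67 ± 0.12 and Gata2 by 0.54 ± 0.07. Srgn, the proteoglycan core of secretory granules, rose by 0.14. Mcpt8, a basophil protease, was at 0.77 and did not pass (adjusted p = 0.205). Hdc, Slc18a2, Gata2 and Srgn were higher on 8 of 8 plates and Cpa3 on 7.

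Of the 25 megakaryocyte genes listed, 12 could be tested, 2 rose (the partners Pf4 and Itga2b) and 0 fell, and 11 of the 12 were above 0 with a median of 0.53. Mmrn1, a platelet alpha granule protein, was at 0.73 (adjusted p = 0.0732) and Gp9, a chain of the von Willebrand factor receptor, at 0.94 (adjusted p = 0.205). Of the 16 erythroid genes, 13 could be tested and 0 passed, with a median of -0.18. Gata1 was at 0.61 (adjusted p = 0.475) and Klf1, a red cell transcription factor, at -0.38 (adjusted p = 0.831). Of the 18 stem cell genes, 13 could be tested and 0 passed, with a median of 0.12. Esam was at 0.96 (adjusted p = 0.0656) and Hlf at -0.02.

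Of the 20 macrophage genes listed, 10 could be tested and 4 rose, C1qb, C1qc, Vcam1 and Hmox1, with 10 of 10 above 0 and a median of 0.58. Vcam1, an adhesion molecule of central macrophages and stroma, differed by 1.20 ± 0.24 (higher on 7 of 8 plates), and Hmox1, which breaks down heme, by 0.83 ± 0.19. Without any C1q well, 5 macrophage genes could be tested, none passed, and Hmox1 was at 0.17 (adjusted p = 0.949). Csf1r, the receptor of macrophage colony stimulating factor, was at 0.02 in all wells. Among 16 granulocyte and monocyte genes tested, 1 rose: Elane, neutrophil elastase, by 0.56 ± 0.08, higher on 6 of 8 plates. Mpo was at 0.20 (adjusted p = 0.0656).

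Of the 18 lymphoid priming genes listed, 17 could be tested, 4 fell and 0 rose, and 17 of 17 were below 0 with a median of -0.28. Dntt fell by 0.41 on the log2 scale, from 241 to 190 CPM, and Flt3 fell by 0.32. Notch1, a receptor for T lineage commitment, fell by 0.42. Among the 9 B lineage genes, 9 could be tested and 1 fell: Vpreb1, part of the surrogate light chain, by 1.07. Cd34 fell by 0.21. The other genes past the threshold with the same sign on 8 of 8 plates included, on the higher side, Mfsd2b, a sphingosine phosphate exporter of red cells and platelets (1.06), Unc119 (0.79), Ctnnd1 (0.70), Gng11 (0.68), Cd63 (0.34) and Gse1 (0.33), and on the lower side Slc29a1, a nucleoside transporter (-0.47), 2610021A01Rik (-1.37), H2afy (-0.20) and Gm10073 (-0.09).

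How many genes passed depended on the model. Leaving out C1q wells, a setting chosen after seeing the data, kept 17 of the 31 and added none. Adding a median split of total count as a term gave 22, of which 21 were among the 31. Comparing within the 4 classes of CD150 and Dach1-GFP gave 1, Elane at 0.64 (adjusted p = 0.0129), among 6663 genes tested. In that model 19 of the 31 could be tested, all with the same sign, Gata2 at 0.34 (adjusted p = 0.127) and Flt3 at -0.12 (adjusted p = 0.776). DESeq2 called 12, all among the 31. Without the plate as a block edgeR called 0, with 208 genes at an unadjusted p under 0.05 against 862 with it.

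**Figure D5:**
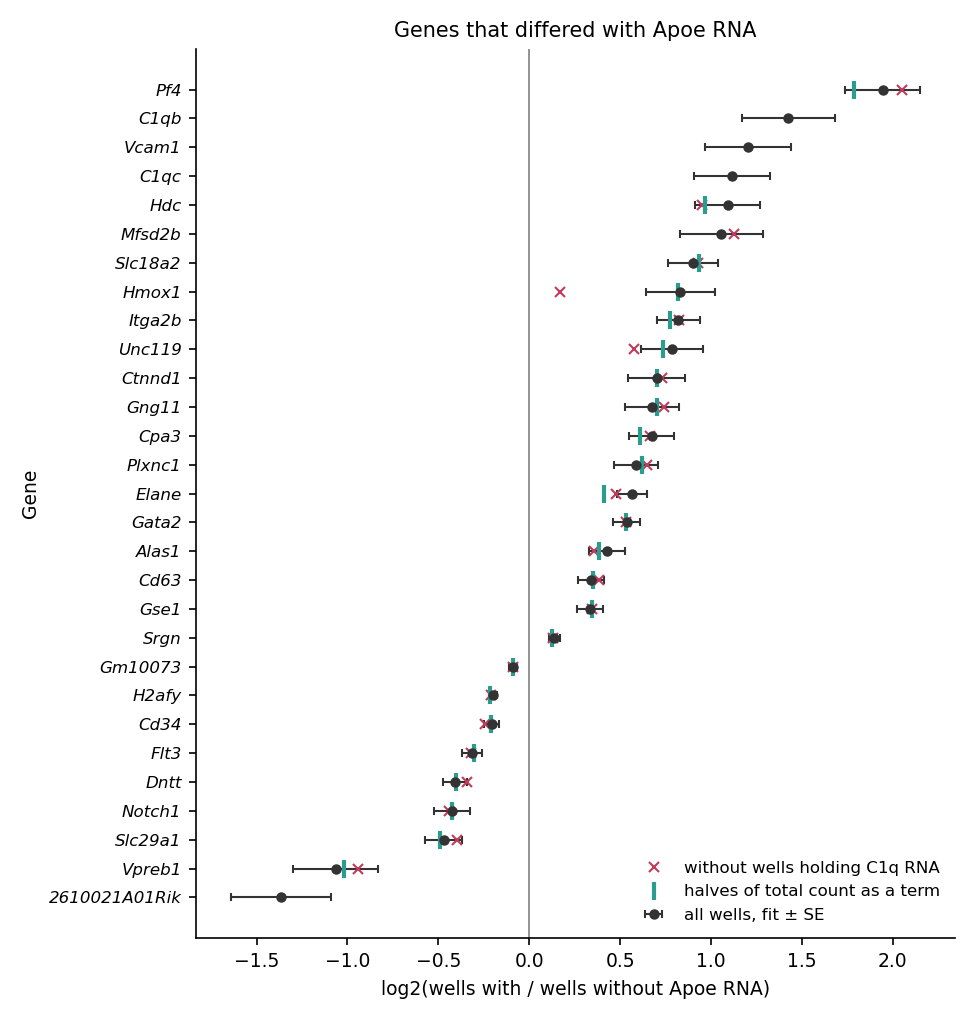
Genes past an adjusted p of 0.05 (29 of the 31) between wells with and without Apoe RNA, ordered by the log2 difference (horizontal axis); points and bars are the edgeR fit ± SE over 8 plates, crosses the values without any C1q well and vertical ticks those with a median split of total count as a term. Pf4 leads at 1.94, and Hmox1 moves from 0.83 to 0.17 without C1q wells.

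No gene of the Apoe pathway passed the test between wells with and without Apoe RNA. Of its receptors, Lrp6 RNA was found in 33.4% of wells, Vldlr in 31.6%, Scarb1 in 27.3%, Lrp5 in 16.4%, Sorl1 in 14.1% and Lrp8 in 13.7%. Lrp1, a large clearance receptor, was found in 3.36% and Trem2, a receptor of lipid-laden macrophages, in 0.18%. Of 10 receptor genes listed 7 could be tested and 0 passed, with a median of -0.05. Vldlr was at -0.08 and Lrp5 at 0.40 (adjusted p = 0.461). Of the 11 lipid efflux and storage genes 7 could be tested and 0 passed. Abca1 was at -0.05 and Abcg1 at -0.08. Of the 14 regulators 11 could be tested and 0 passed, with a median of -0.07. Nr1h2, the liver X receptor found most often here (33.7% of wells), was at -0.19, Srebf2, the sterol sensor, at -0.19, and Nr1h3, the liver X receptor of macrophages, was found in 0.59% of wells. In simulated counts of this comparison edgeR recovered 90 of 100 genes changed by 1 on the log2 scale and 31 of 100 changed by 0.58. Changes of the smaller size would often be missed. The simulation had no plate effect and a fixed dispersion, and only genes of higher counts were changed. Recovery of sparser genes, or with plate effects, was not tested.

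The neighbours of Apoe on the chromosome did not pass either. Tomm40, found in 42.9% of wells, was at 0.10 in wells with Apoe (adjusted p = 0.828) and Clptm1 at -0.18 (adjusted p = 0.789). Apoc1 gave 9 counts and Apoc4 gave 5 in all wells. Among the other apolipoproteins none had enough counts to be tested, and Clu had most, with 60 counts.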

How the data were processed

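Index-sorted single LSK cells of 8 plates, prepared by CEL-seq2, were analysed as 1 group. The authors deposited whole-number counts per gene and well with Ensembl mouse identifiers. Which aligner and counter were used, and whether molecular identifiers were collapsed, is not given in the sources used here. GRCh38 is the only build in the submitters' processing notes, although all gene identifiers are mouse. Fluorescence intensities of each sorted well are deposited as linear values, per the file headers, and are used only as ranks within a plate. Of 27318 gene identifiers, 27249 matched a symbol, and 81 spike-in identifiers were left out of totals. Sort records without a barcode (9) were not used.

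Wells with at least 1000 counts, 500 genes and under 20% mitochondrial counts were kept. A well has Apoe RNA if it holds at least 1 count. Shares were taken per plate in quintiles, terciles or median splits of a channel. Thinned shares are the expected shares after drawing 3000 counts per well. Counts summed per plate and arm were fitted with edgeR 4.0.16 in R 4.3.3 (TMM, filterByExpr, quasi-likelihood, plate as a block, Benjamini-Hochberg over all genes, threshold 0.05). DESeq2 1.42.0 was an alternative, as were other wells, plates, arms, filters and models. All settings without any C1q well were added after seeing the data. Pairing by plate follows from each plate's arms sharing 1 library. Odds ratios are Mantel-Haenszel values over plates. The scripts were tested on counts simulated without a plate effect, at a fixed dispersion, with changes placed only in genes of higher counts. With 100 genes each changed by 1 and by 0.58 (log2), edgeR recovered 95% and 33% along CD11b on 8 plates, and 60% and 4% along CD48 on 4 plates.

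The gene, its partners, the gene lists and the tests were chosen with earlier results of these data known. Genes named between wells with and without Apoe RNA are the 15 largest rises and 10 largest falls past the threshold with the same sign on 8 of 8 plates, and members of the 19 lists that passed, with examples from each. In the likeness ranking the 10 highest and 5 lowest are named. Some genes that these rules would name are not reported here.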

Additional observations from a re-analysis of the deposited data

Results flagged for a closer look

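LC190 stood apart from the other plates along CD150. Its log2 CPM ratio of Apoe between the brightest and dimmest tercile was 2.73, the next plate was at 1.35 and the lowest at 0.72, a gap that exceeds the 95% limit of Dixon's test for 8 plates. Among 33 series of plate values checked this way, 1 passed that limit, and chance alone passes about 1 in 20. On LC190 Apoe was at 160 CPM in the bright and 24.2 CPM in the dim tercile, and the wells with any C1q RNA were 23.7% and 15.9%. The part of C1q wells in this value was not tested on the single plate.

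Wells without a sort record lie outside the comparisons. Of 77 such wells, 12 had over 1000 counts, and 3 of the 77 held 5 Apoe counts in all. The 65 wells below that depth had 879 counts at most and 4256 in total, with 0 of Apoe.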

How the results depend on the processing

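Along CD150, Dach1-GFP and CD135 no setting changed the sign of Apoe. The Dach1-GFP share difference of 18.2 percentage points was 11.5 after thinning and 12.2 in a median split. In the 9 other channels the calls were less stable. Along Sca1 the call was lost on the LC plates alone (-0.44, adjusted p = 0.0869), on the LCE plates alone (-0.42, 0.232) and with DESeq2 (-0.44, 0.14), and leaving out 1 plate gave -0.55 to -0.34. Along CD11b it was lost on the LC plates (0.50), on the LCE plates (0.56), with DESeq2 (0.52), in a median split (0.27), without macrophage-like wells (0.35) and without any C1q well (0.14). Along CD48 it was lost with DESeq2 (-0.92, 0.0811). Along CD16/32 it was lost with DESeq2 (0.85), without any C1q well (0.66) and without LCE409 (0.76, adjusted p = 0.0645), in a range of 0.76 to 0.95 over plates left out. Along PIR-A it was lost with DESeq2 (0.83), without B lineage wells (0.70), without any C1q well (0.59) and without LCE409 (0.54, adjusted p = 0.421), in a range of 0.54 to 1.05. The interaction of Dach1-GFP with CD135 was -1.18 on the LCE plates alone. The cause was not tested in any of these.

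Without the plate as a replicate block the values were -0.46 along Sca1, 0.51 along CD11b, -0.92 along CD48, 0.84 along CD16/32 and 0.75 along PIR-A. None passed, with adjusted p from 0.0651 to 1. The same model called 0 genes by Apoe RNA.

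The 31 genes by Apoe RNA became 9 on the LC plates alone, 14 on the LCE plates alone, 12 with DESeq2 and 17 without any C1q well. Within the 4 classes of CD150 and Dach1-GFP 1 gene passed (439 at an unadjusted p under 0.05). Within those classes and a split by depth, without any C1q well, 0 of 3239 passed (249 unadjusted), where fewer genes could be tested. Both settings without any C1q well were added after seeing the data. Without a filter on low counts 109 passed, 35 higher and 74 lower. With wells of at least 2 Apoe counts set against wells with none, 46 passed, 26 higher and 20 lower, and 21 of them were among the 31. Leaving out 1 plate gave 23 to 45. DESeq2's scaling moved the median of all genes to 0.12. Of single genes by Apoe RNA, 341 values under other settings still passed, 195 no longer did and none changed sign. The LCE plates, at lower depth, limit what can be seen along the 5 channels recorded only there.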
